A study of Mus musculus with 16 samples.

Results

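The comparison described here sets every cytokine-treated library against the vehicle libraries, in lumbar dorsal root ganglia (DRG, L3 to L5) from mice of strain C57BL/6 whose paw was inflamed. It uses all 16 samples of the series, 11 treated and 5 vehicle, and its subject is the genes that moved alike under both treatments. All mice had received 20 µl of 2% carrageenan, an irritant polysaccharide, into the paw, and 6 days later an intrathecal injection. The vehicle group received PBS (n = 5), the fusion group 1 µg of IL4-10 FP, a single molecule made of both cytokines (n = 6), and the combination group 0.5 µg of IL4 plus 0.5 µg of IL10 as separate molecules (n = 5). The ganglia were taken 6 hours later, and polyA-selected RNA was sequenced. Every group carried the carrageenan inflammation, so the comparison is between treatments of inflamed mice, at 1 dose and 1 time.

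IL4 and IL10 are anti-inflammatory cytokines. IL4 acts through the receptor chain IL4Rα and the transcription factor STAT6, and IL10 through IL10Rα, IL10Rβ and STAT3. The DRG hold the cell bodies of sensory neurons, among them the nociceptors that release the peptides CGRP and substance P, together with satellite glia, Schwann cells, macrophages and vessels. Both cytokines are known to reduce inflammatory pain when given at the spinal level.

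Of 36722 genes, 13385 were tested, those whose mean log2 value over all libraries exceeded the table's minimum by 1 or more. Just below that limit were Nfatc4 and Mir17hg, and just above it Rbp2 and Mms22l, all with a mean log2 value of 6.99. The pooled difference is the mean of the 2 treatments, each weighted equally, minus vehicle, on the variance-stabilised log2 scale of the table, with the SE of limma. It passed at a Benjamini-Hochberg adjusted p under 0.05. A gene is said to have moved alike when the pooled difference and the difference of each treatment from vehicle all passed in the same direction and the smaller of the 2 sizes was at least 0.5 times the larger. Values per library are given as scaled values, whole numbers decoded from the deposited table. They are not read counts, and the read depth is unknown. Near the lower end of the scale a log2 difference understates the ratio of scaled values.

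With cytokine treatment 2490 genes were higher (18.6% of those tested) and 1805 lower (13.5%). Of these, 986 genes rose alike in both treatments (7.37% of the tested genes) and 867 fell alike (6.48%). The genes that moved alike made up 43.1% of the pooled calls. Of these genes, 215 (11.6%) also differed between the treatments, so moving alike does not mean moving by the same size. Their changes were mostly modest: the median difference was 0.33 among the rises and -0.37 among the falls, and 231 of the 1853 differed by at least 0.5. All 7 genes that differed by at least 1 were lower. The share of tested genes with all 11 treated libraries above every vehicle library was 5.12%, and with all 11 below every vehicle library 3.38%. Among the genes that rose alike 596 showed the first pattern, and among those that fell alike 433 showed the second. At the limit of the ratio lay Ddx1 and Zfp708, just outside, and Tmem184b and Rbx1, just inside.

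All 18 listed markers of sensory neurons, all 11 of satellite glia and all 12 of myelinating Schwann cells passed the filter. So did 2 of 15 T cell and NK cell, 6 of 7 B cell, 12 of 14 neutrophil and 6 of 9 skeletal muscle markers. Passing the filter therefore did not by itself set DRG apart from other tissue. The skeletal muscle markers summed to between 49 and 4058 in vehicle, 47 and 1139 in fusion and 29 and 1105 in combination libraries. The summed scaled values of the sensory neuron markers ranged from 309496 to 395641 in vehicle, from 295535 to 459376 in fusion and from 325168 to 408645 in combination libraries, so the groups overlapped. The macrophage markers summed to between 2994 and 5075 in vehicle, between 5269 and 14053 in fusion and between 3832 and 5288 in combination libraries. In bulk tissue, fewer cells of a type and less RNA per cell cannot be told apart. The scaled values of a library summed to 17.8 ± 0.609 M in vehicle, 17.8 ± 0.754 M in fusion and 19.6 ± 0.973 M in combination libraries (mean ± SD). Label numbers from 12 to 19 belonged to all 5 combination libraries, 2 fusion libraries and 1 vehicle library, and what the numbers stand for is not given in the sources used here. With a term for these late numbers, 749 genes rose and 646 fell alike. The median pooled difference over all tested genes was 0.02.

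**Figure D1:**
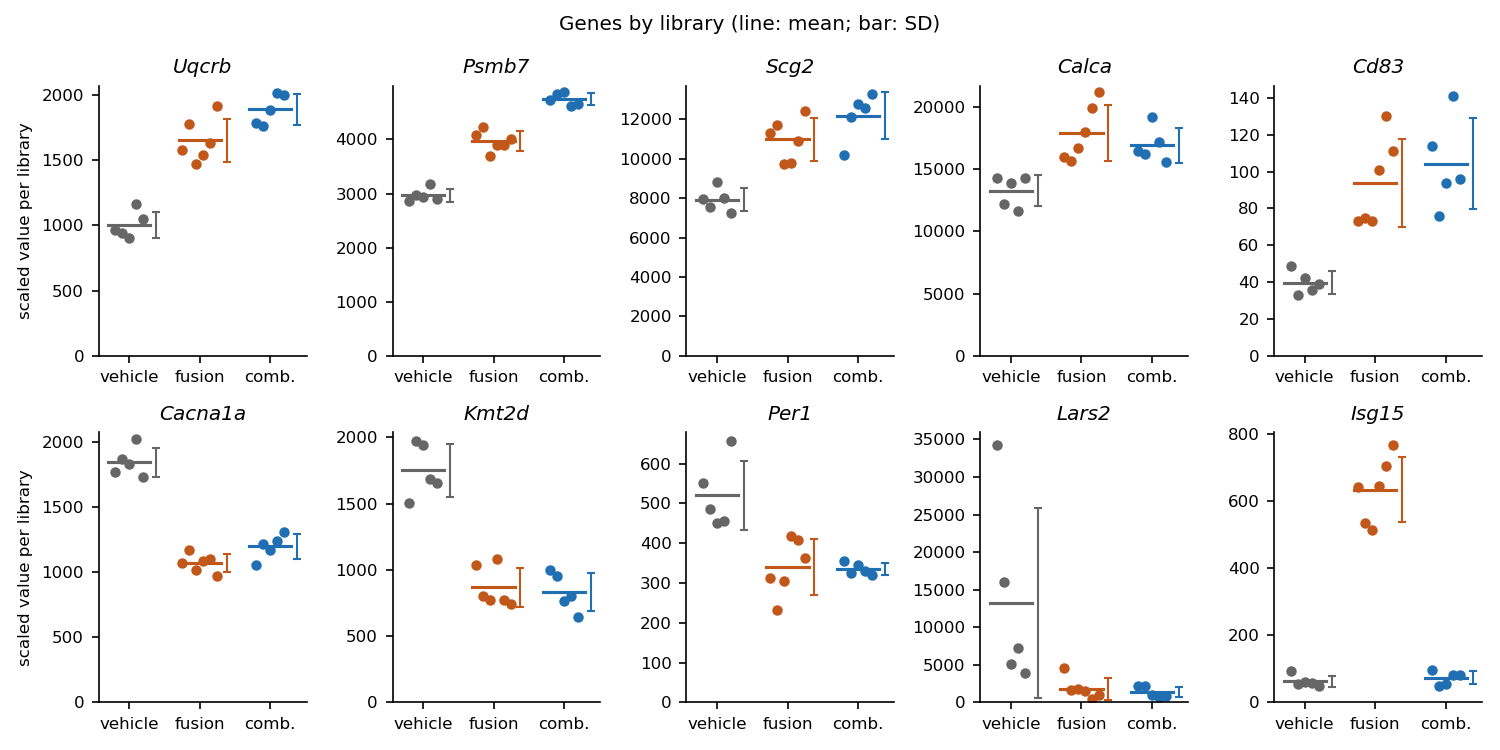
Scaled value of 10 genes in each library (y axis, from 0), by group on the x axis. Points are libraries, horizontal lines group means and error bars SD (vehicle n = 5, fusion n = 6, combination n = 5). Uqcrb, Psmb7, Scg2, Calca and Cd83 were higher in all 11 treated libraries than in any vehicle library, Cacna1a, Kmt2d and Per1 were lower in all 11, Lars2 was lower in 10, and Isg15 was high in the fusion libraries.

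The most uniform of the rises was in the proteasome, the complex that degrades ubiquitin-tagged proteins. Of its 31 subunit genes, 27 were higher with cytokine treatment and 24 of these rose alike, against the 18.6% and 7.37% of all tested genes, and 1, Psmd3, was lower. The list median was 0.35, beside 0.02 over all tested genes, and in each of the 11 treated libraries it lay above all 5 vehicle libraries. Psmb7, a catalytic β subunit, had scaled values of 2865, 2979, 2929, 3172 and 2899 in the vehicle libraries. In the fusion libraries they ran from 3700 to 4223 with a median of 3953.5, and in the combination libraries they were 4720, 4835, 4886, 4621 and 4652. The groups did not overlap, and the pooled difference was 0.53 ± 0.05 (limma, adjusted p = 8.92e-07). The combination libraries were also above all fusion libraries (fusion minus combination -0.25, 95% interval -0.36 to -0.14). The α-ring subunit Psma2 (0.52 ± 0.05, adjusted p = 3.02e-06) and the ATPase subunit Psmc1 (0.48 ± 0.05, adjusted p = 4.82e-06) followed the same course, each above every vehicle library in all 11 treated libraries.

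Subunits of the respiratory chain encoded in the nucleus rose as well. In complex I, which takes electrons from NADH, 21 of 37 genes were higher and 15 rose alike, and in complexes II to V 22 of 38 were higher and 18 rose alike. None was lower in either list, and the medians were 0.27 and 0.26. Beside the counts of this paragraph, 18.6% of all tested genes were higher, 13.5% lower, 7.37% higher alike and 6.48% lower alike. Uqcrb, a subunit of complex III, was at 965, 942, 899, 1159 and 1046 in vehicle libraries. It was at 1465 to 1911 (median 1603.5) in fusion and at 1779, 1762, 1882, 2010 and 1998 in combination libraries, with no overlap between treated and vehicle. Its pooled difference was 0.75 ± 0.07 (adjusted p = 6.85e-07). Ndufb4 of complex I had the largest rise of any gene with an established symbol that moved alike, 0.91 ± 0.15 (adjusted p = 0.000216). It was at 65, 42, 55, 64 and 61 in vehicle, at 104 to 272 (median 127.5) in fusion and at 215, 142, 181, 219 and 398 in combination libraries. Both it and the ribosomal gene Rpl36a belong to families with near-identical copies in the genome, between which reads can be split. Genes of the mitochondrial ribosome, which translates the mitochondrial genome, were higher in 39 of 75 cases (23 alike, none lower, median 0.19). The mitochondrially encoded messages themselves did not share this course: of 7 tested, mt-Co1 was higher (0.36 ± 0.09) but not alike, and mt-Nd6 was lower. The V-ATPase, the proton pump of lysosomes and secretory vesicles, had 9 of 17 subunits higher (8 alike, median 0.26), led by Atp6v1e1 (0.42 ± 0.05, adjusted p = 8.81e-06), and 1 lower, Atp6v0a1.

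**Figure D2:**
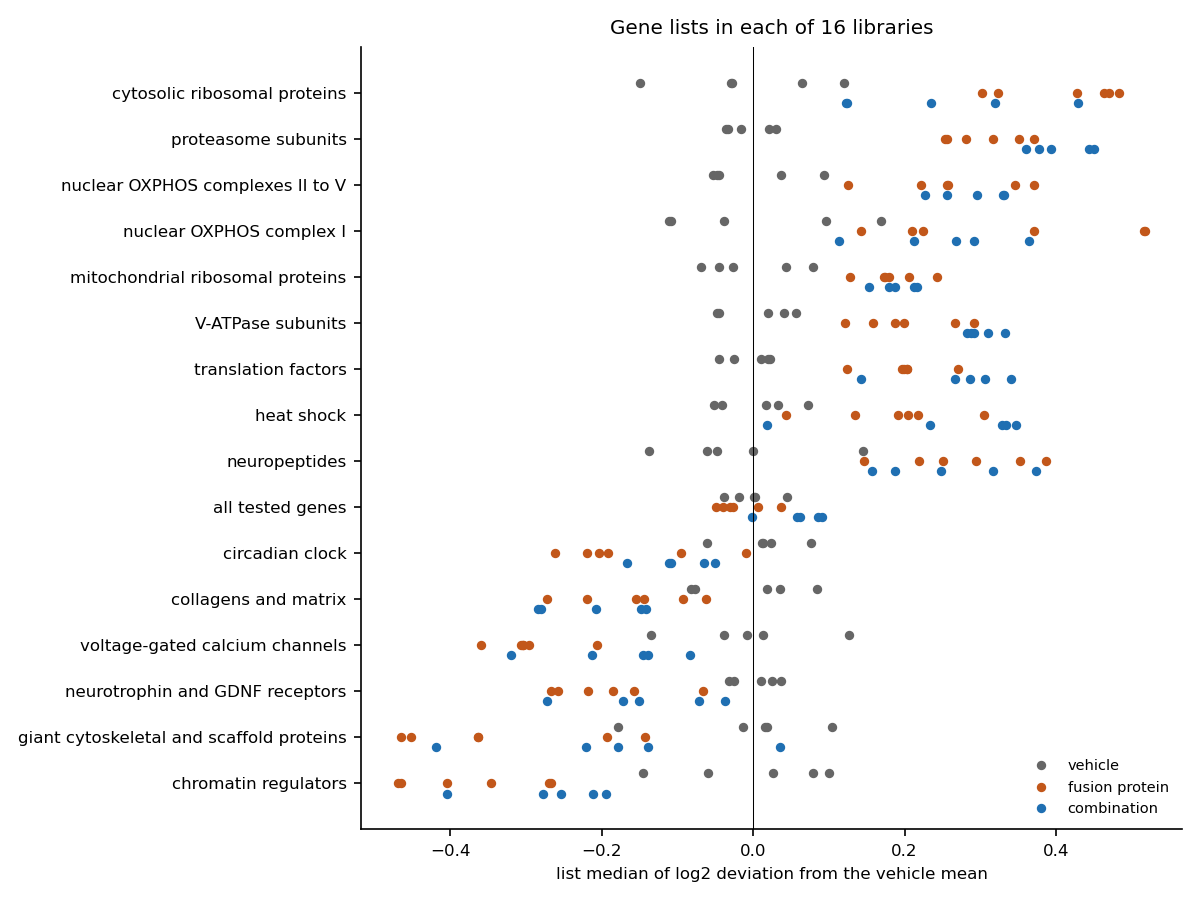
Median over each list's tested genes of the log2 deviation from the vehicle mean (x axis), for 16 gene sets (y axis, all tested genes included). Each point is a library, in separate rows for vehicle, fusion and combination. Proteasome, ribosome, V-ATPase and translation factor medians of the 11 treated libraries lie above all vehicle libraries, and those of the chromatin regulators lie below them.

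The machinery of cytosolic translation rose in the same libraries. Of 77 cytosolic ribosomal protein genes 50 were higher (34 alike, none lower), with a median of 0.31, and of 36 translation factors 24 were higher and 2 lower (12 and 2 alike), with a median of 0.25. Over all tested genes 18.6% were higher, 13.5% lower, 7.37% higher alike and 6.48% lower alike. Rpl35a, a large-subunit protein, was at 785, 752, 739, 805 and 670 in vehicle, at 1005 to 1219 (median 1092.5) in fusion and at 1209, 1149, 1204, 1187 and 1306 in combination libraries. All treated libraries were above the vehicle libraries (0.56 ± 0.05, adjusted p = 1.97e-06), and the treatments overlapped each other (fusion minus combination -0.12, 95% interval -0.24 to 0.01). Many ribosomal protein genes have processed copies in the genome, between which reads can be split. Rpl36a of the same subunit rose by 0.70 ± 0.09 (adjusted p = 1.38e-05), and more with the combination (gap -0.28, 95% interval -0.48 to -0.07). The ribosomal list as a whole leaned the other way. Its median per library ran from 0.3028 to 0.4826 in fusion and from 0.1228 to 0.4291 in combination libraries. The highest vehicle library was at 0.1202, so some combination libraries lay barely above it. Eif3k, a subunit of the initiation factor eIF3, rose by 0.59 ± 0.10 (adjusted p = 0.000213). The 2 factors that fell alike were Eif4g3, a scaffold of the cap-binding complex, and Eef1a2, the elongation factor form of neurons and muscle (-0.38 and -0.50).

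Protein-folding genes followed. Of 21 heat shock genes 12 were higher and 2 lower (7 and 1 alike, median 0.24), and of 26 genes of the unfolded protein response 10 were higher and 2 lower (5 and 1 alike, median 0.13). The constitutive chaperone Hspa8 was at 36258, 34856, 35353, 37182 and 37307 in vehicle, at 43173 to 52670 (median 46960) in fusion and at 52751, 46688, 51679, 49758 and 54506 in combination libraries. It was thus among the more abundant messages and higher in all 11 treated libraries (0.43 ± 0.06, adjusted p = 3.53e-05). The chaperones of the endoplasmic reticulum Hsp90b1 (0.44 ± 0.06, adjusted p = 5.25e-05) and Pdia6 (0.35 ± 0.05, adjusted p = 4.89e-05) rose alike. Bag3, a co-chaperone of selective autophagy, went the other way, from 3956, 3649, 3113, 4029 and 3125 in vehicle to 2266 to 2945 (median 2443) in fusion and 1867, 2496, 2785, 2071 and 2384 in combination libraries. It fell by 0.55 on the log2 scale (SE 0.09, adjusted p = 0.00013), with no overlap. Syvn1, the ubiquitin ligase of the endoplasmic reticulum, also fell alike (-0.46 ± 0.06). The cholesterol pathway had 9 of 25 genes higher (4 alike) and 4 lower (1 alike): the enzymes Fdft1 (0.46 ± 0.06, adjusted p = 1.54e-05) and Fdps (0.43 ± 0.06, adjusted p = 2.79e-05) rose alike, whereas Srebf2, which encodes the pathway's transcription factor, was lower (-0.38 ± 0.08), though not alike. The cholesterol falls alike numbered 0 when any of vehicle replicates 1, 2 and 4, fusion replicates 1, 3 and 4 or combination replicate 1 was left out. They numbered 2 without fusion replicate 5 or 6. Without vehicle replicate 2 the heat shock genes that rose alike numbered 4 in place of 7. Beside the counts of these 3 lists, 18.6% of all tested genes were higher, 13.5% lower, 7.37% higher alike and 6.48% lower alike.

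Messages of the neuropeptide list were higher in 10 of 17 cases, 8 of them alike, with a list median of 0.32. The 8 were Scg2, Nppb, Nts, Penk, Calca, Gal, Nmb and Tac1. The shares over all tested genes were 18.6% higher, 13.5% lower, 7.37% higher alike and 6.48% lower alike. Scg2, the secretogranin of dense-core vesicles, was at 7952, 7566, 8800, 7989 and 7248 in vehicle, at 9724 to 12436 (median 11089) in fusion and at 10177, 12101, 12795, 12565 and 13263 in combination libraries. No treated library overlapped the vehicle libraries (0.54 ± 0.07, adjusted p = 3.08e-05). Calca, which encodes CGRP, was at 14285, 12163, 13896, 11642 and 14233 in vehicle, at 15665 to 21174 (median 17327.5) in fusion and at 16436, 16220, 19189, 17160 and 15537 in combination libraries. It rose by 0.39 ± 0.08 (adjusted p = 0.00104), again without overlap. Tac1, which encodes substance P and was chosen after its values were seen, rose by 0.32 ± 0.07 (adjusted p = 0.00237), with 10 of 11 treated libraries above every vehicle library. Combination replicate 1, at 3322, was the exception, inside the vehicle range of 3052 to 3484. Penk (0.41) encodes enkephalin, an opioid peptide, and Gal (0.36) galanin. Vgf, the precursor of another secreted peptide, was lower (-0.54, adjusted p = 0.0263), not alike, a call that ended without vehicle replicate 2. Beside these values, 6 of 18 sensory neuron markers were higher (3 without vehicle replicate 2 or 3) and 1 lower, with a median of 0.11. Calca and Tac1 belong to both lists and are among the 6, so these counts are not independent. The lower marker was Rbfox3, which fell alike (-0.39). The part of the sensory neuron markers in the neuropeptide result was not tested.

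Regulators of chromatin were lower in many cases. Of 44 chromatin regulators 30 were lower and none higher, against 13.5% of all tested genes, and 20 fell alike, against 6.48%. The list median was -0.31 and lay below all vehicle libraries in all 11 treated ones. Kmt2d, a histone H3K4 methyltransferase, was at 1507, 1970, 1945, 1684 and 1654 in vehicle, at 741 to 1080 (median 789) in fusion and at 996, 951, 764, 805 and 643 in combination libraries. Its treatments overlapped each other and not the vehicle libraries (-0.96 ± 0.10, adjusted p = 2.58e-06, gap 0.05, 95% interval -0.17 to 0.28). Setd1b, another methyltransferase of the same residue (-0.73 ± 0.07, adjusted p = 1.98e-06), and Tet3, which oxidises methylcytosine (-0.55 ± 0.06, adjusted p = 2.33e-06), were below every vehicle library in all 11 treated libraries.

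Very large scaffold and cytoskeletal proteins made up a second set: 21 of 44 were lower and none higher (12 alike, median -0.27). For this list and the collagens below, the shares over all tested genes were 13.5% lower and 6.48% lower alike. Plec, which encodes plectin, the linker of intermediate filaments, was at 8559, 6729, 6068, 5605 and 6668 in vehicle, at 3772 to 4532 (median 4080.5) in fusion and at 3129, 2856, 3130, 2606 and 2890 in combination libraries. It fell by 0.91 on the log2 scale (SE 0.08, adjusted p = 6.23e-07) and further with the combination (gap 0.48, 95% interval 0.30 to 0.67). Bsn, the presynaptic scaffold bassoon, was at 2813, 3005, 2759, 3085 and 2340 in vehicle, at 1268 to 1767 (median 1593.5) in fusion and at 1425, 1585, 1591, 1247 and 1482 in combination libraries, with overlap between treatments only (-0.84 ± 0.08, adjusted p = 8.92e-07). Of 34 collagen and matrix genes 13 were lower (4 alike, none higher, median -0.22), and here Hspg2, which encodes perlecan, had the largest fall (-0.87 ± 0.11, adjusted p = 1.35e-05). Col1a1 was at 1670, 1392, 1391, 983 and 1080 in vehicle and at 1148, 736, 536, 770 and 582 in combination libraries, so that combination replicate 1 lay within the vehicle range, as did fusion replicate 4 at 1001 (-0.69 ± 0.15, adjusted p = 0.00194).

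Voltage-gated calcium channel genes were lower in 10 of 17 cases, against 13.5% of all tested genes, and higher in none (7 alike, median -0.22). Cacna1a, the pore of P/Q-type channels that trigger transmitter release, was at 1768, 1874, 1831, 2022 and 1730 in vehicle, at 972 to 1174 (median 1080) in fusion and at 1057, 1216, 1175, 1239 and 1313 in combination libraries. No treated library reached the vehicle range (-0.65 ± 0.06, adjusted p = 6.85e-07). The T-type channel Cacna1h (-0.58 ± 0.06, adjusted p = 5.01e-06) and the N-type channel Cacna1b (-0.38 ± 0.06, adjusted p = 0.000226) fell alike. Among 35 voltage-gated potassium channel genes 11 were lower (31.4%, 7 alike) and 4 higher (11.4%, none alike), beside 13.5% and 18.6% of all tested genes; the 4 became 2 when any 1 vehicle library other than replicate 4 was left out, and also without fusion replicate 2 or combination replicate 2. Of 32 sensory transduction channel genes, 6 were higher (18.8%, beside 18.6% of all tested genes) and 9 lower (28.1%, beside 13.5%), with 1 rise and 6 falls alike, beside 7.37% and 6.48%. Hcn2, a pacemaker channel that drives repetitive firing of nociceptors, was at 1111, 942, 911, 1081 and 786 in vehicle, at 592 to 718 (median 646) in fusion and at 505, 645, 772, 599 and 727 in combination libraries, all below the lowest vehicle library (-0.49 ± 0.08, adjusted p = 0.000203). Hcn3 and Hcn4 fell alike with it. The gene of the irritant receptor Trpa1, chosen after its values were seen, was the 1 that rose alike (0.34 ± 0.08, adjusted p = 0.00237), with 8 of 11 treated libraries above every vehicle library. It no longer counted as alike when any of vehicle replicates 1, 2, 3 and 5 or fusion replicate 6 was left out. Receptors for growth factors were lower in 7 of 20 cases (3 alike: Cntfr, Igf1r and Gfra2, none higher). Cntfr, the receptor chain for ciliary neurotrophic factor, was at 906, 657, 742, 692 and 772 in vehicle, at 303 to 638 (median 479) in fusion and at 516, 414, 537, 360 and 426 in combination libraries (-0.59 ± 0.12, adjusted p = 0.000972).

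Of 21 clock genes, 3 were lower (14.3%), a share near the 13.5% of all tested genes, and none was higher. All 3 fell alike: Nr1d1 and Per1 in all 11 treated libraries below every vehicle library, and Per2 in 9. These encode repressors of the feedback loops that time daily transcription. Nr1d1 was at 385, 408, 442, 472 and 308 in vehicle, at 223 to 298 (median 261.5) in fusion and at 247, 222, 235, 264 and 251 in combination libraries (-0.50 ± 0.07, adjusted p = 3.7e-05). Per1 was at 551, 486, 451, 456 and 657 in vehicle, at 233 to 417 (median 337.5) in fusion and at 355, 326, 345, 331 and 319 in combination libraries (-0.49 ± 0.09, adjusted p = 0.000447), with the same size in both treatments (gap -0.00, 95% interval -0.21 to 0.21). The hour at which each mouse was sampled is not given in the sources used here, and its part in these values was not tested. Without vehicle replicate 1 the lower clock genes numbered 5.

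The promoter windows of a few list members are printed as sequence. They are stretches of 100 bases lying before the RefSeq transcription start, build GRCm38.p6, written 5′ to 3′ on the strand of the gene. The search for motifs covered 3, read on both strands of every window of 250 bases before to 50 after a start: the E-box CACGTG, bound by clock factors, the cAMP response element TGACGTCA, bound by CREB and chosen after the data were seen, and GAAANNGAAA, the core of the interferon-stimulated response element. The ends of the first pair can share 2 bases, and no window printed here holds such an overlap. Capitals mark the matches. Scg2 (chr1:79440047-79440146, minus strand) and Chgb (chr2:132781522-132781621, plus strand), which rose with treatment, and Sst (chr16:23890865-23890964, minus strand), which did not pass the test (-0.11, adjusted p = 0.36), hold the cAMP element. Per1 (chr11:69098749-69098848, plus strand), which fell alike, holds an E-box, and Ciart (chr3:95882249-95882348, minus strand), a clock gene that did not pass (-0.17, adjusted p = 0.18), holds 3. Isg15 (chr4:156200839-156200938, minus strand), an interferon-induced gene, holds overlapping matches to the interferon core.
Scg2: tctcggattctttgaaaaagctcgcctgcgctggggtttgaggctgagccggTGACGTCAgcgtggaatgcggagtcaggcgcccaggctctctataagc
Chgb: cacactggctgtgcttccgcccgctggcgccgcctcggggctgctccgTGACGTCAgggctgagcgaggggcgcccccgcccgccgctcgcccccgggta
Sst: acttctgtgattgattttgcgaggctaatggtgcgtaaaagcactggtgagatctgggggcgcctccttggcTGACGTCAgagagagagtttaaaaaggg
Per1: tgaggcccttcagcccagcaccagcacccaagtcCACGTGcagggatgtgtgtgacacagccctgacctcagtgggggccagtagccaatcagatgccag
Ciart: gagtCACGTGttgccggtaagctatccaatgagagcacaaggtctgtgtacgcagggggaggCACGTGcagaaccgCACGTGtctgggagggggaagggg
Isg15: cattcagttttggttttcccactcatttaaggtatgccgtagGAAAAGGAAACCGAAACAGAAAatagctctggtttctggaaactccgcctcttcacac
The cAMP element of Scg2 began 68 bases before the start, that of Chgb 72 and that of Sst 48, and the E-box of Per1 166 bases before it.

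Across all 32851 windows the E-box was found in 7.15%, the cAMP element in 1.79% and the interferon core in 3.44%. A window was matched by gene identifier for 10322 tested genes, and the shares there were 10.1%, 3.28% and 2.95%. In the 785 windows of genes that rose alike they were 11.3%, 4.59% and 3.44%, and in the 665 windows of genes that fell alike 6.32%, 2.26% and 1.20%. Of 14 neuropeptide windows 4 held the cAMP element, those of Scg2, Chgb, Sst and Cartpt, and of 17 clock windows 5 held the E-box. The windows also differed in base composition: their median GC content was 59% for the genes that rose alike, 66% for those that fell alike and 61% for all tested genes with a window. A match of letters is a description and does not show that a factor was bound.

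Genes of interferon and inflammation entered the pooled comparison through 1 treatment. Of 48 interferon response genes 19 were higher in the pooled comparison (12 without vehicle replicate 5), but 1, Ifi27, rose alike, and the list median was 0.37 in the pooled comparison, 0.83 with the fusion protein and -0.14 with the combination. Isg15, a ubiquitin-like protein induced by interferon, was at 92, 55, 62, 57 and 48 in vehicle, at 512 to 767 (median 641.5) in fusion and at 96, 50, 56, 81 and 83 in combination libraries. Its pooled difference of 1.14 ± 0.09 (adjusted p = 3.47e-07) averages unlike treatments: the fusion libraries exceeded the combination libraries by 2.09 (95% interval 1.88 to 2.30, adjusted p = 1.54e-10). None of 22 tested inflammatory cytokine and chemokine genes, 25 antigen presentation genes, 16 targets of IL4 and STAT6 or 30 targets of IL10 and STAT3 rose alike, while 7, 7, 2 and 8 of them were higher in the pooled comparison. Of all tested genes, 7.37% rose alike and 18.6% were higher. At that share few members of lists this small would rise alike, so their absence is not read as a result about these lists. Without vehicle replicate 4 the antigen presentation genes and the IL10 and STAT3 targets that were higher numbered 4 each, and without vehicle replicate 2 or 3 those targets numbered 5. Arg1, the arginase of alternatively activated macrophages, was at 37, 14, 16, 4 and 22 in vehicle, at 211 to 629 (median 228.5) in fusion and at 43, 14, 39, 25 and 153 in combination libraries. The fusion libraries stood apart from the other groups (gap 1.49, 95% interval 0.96 to 2.01, adjusted p = 0.00255). Beside these values, 6 of 17 macrophage markers were higher in the pooled comparison (10 without fusion replicate 2) and none alike, and the part of macrophage number was not tested. Over all 4295 genes called in the pooled comparison, 1364 (31.8%) also differed between the treatments, beside 29.5% of all tested genes.

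**Figure D3:**
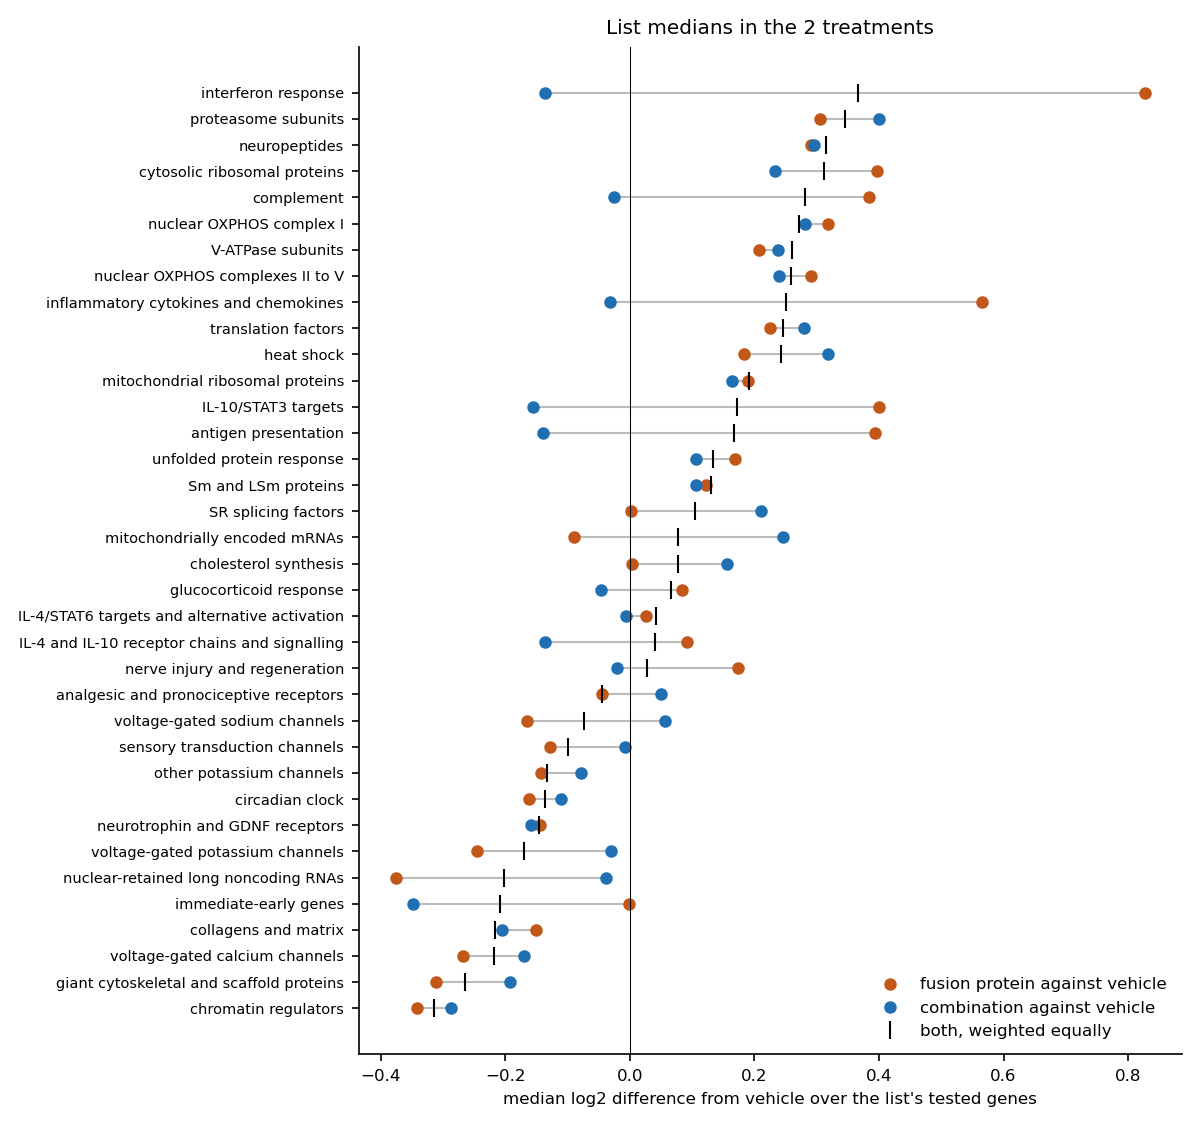
Median log2 difference from vehicle over the tested genes of 36 gene lists (y axis, sorted by the pooled median), for the fusion protein, the combination and both weighted equally (tick). Both treatments share the vehicle libraries. Proteasome, neuropeptide, respiratory chain and chromatin lists have both treatments on the same side, whereas the interferon list lies at 0.83 with the fusion protein and at -0.14 with the combination.

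The cytokines' own receptors and signalling genes moved in both directions. Of 14 tested, 4 were higher (2 without vehicle replicate 1 or 3, 1 without vehicle replicate 5) and 4 lower, and those that moved alike were Irs2, the insulin receptor substrate used by the IL4 receptor, and the kinase Tyk2, both lower, beside 6.48% of all tested genes lower alike. These falls alike numbered 1 without vehicle replicate 1 or 3. Irs2 was at 552, 318, 287, 246 and 319 in vehicle, at 200 to 238 (median 217.5) in fusion and at 127, 144, 171, 140 and 169 in combination libraries (-0.61 ± 0.10, adjusted p = 0.000148). Il10rb, the second chain of the IL10 receptor, was higher by 0.17 ± 0.06 (adjusted p = 0.0309), a call that ended when any of vehicle replicates 1, 3 and 5 or combination replicates 2 and 3 was left out (adjusted p from 0.0502 to 0.0856). Il4ra (0.19 ± 0.14, adjusted p = 0.326), Stat3 (-0.03 ± 0.08, adjusted p = 0.781), Stat6 (0.12 ± 0.06, adjusted p = 0.123) and Socs3 (-0.33 ± 0.41, adjusted p = 0.58) did not pass. Stat6 did pass after removal of each library's trend with length and GC content (0.18, adjusted p = 0.00843), with that removal and a late-label term (0.19, adjusted p = 0.0274) and with array weights (0.11, adjusted p = 0.0407). Il4ra passed without vehicle and fusion replicate 1 together, a setting chosen after seeing the data (0.22, adjusted p = 0.045). Among other immune genes, Cd83, a marker of activated antigen-presenting and B cells, rose alike: it was at 49, 33, 42, 36 and 39 in vehicle, at 73 to 130 (median 88) in fusion and at 114, 76, 94, 141 and 96 in combination libraries (0.58 ± 0.08, adjusted p = 4.73e-05). S100a4, a calcium-binding protein of motile and immune cells, was at 322, 288, 265, 315 and 300 in vehicle, at 446 to 625 (median 484.5) in fusion and at 451, 454, 515, 423 and 655 in combination libraries (0.58 ± 0.08, adjusted p = 3.7e-05). For both genes the treated libraries were all above the vehicle libraries and the treatments overlapped. Zcchc12, a zinc-finger gene expressed in neurons, rose by 0.75 ± 0.12 (adjusted p = 0.000222).

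The shares of all tested genes to set beside the counts of the remaining lists are 18.6% higher, 13.5% lower, 7.37% higher alike and 6.48% lower alike. Of 22 Sm and LSm proteins, the core of the spliceosome's small particles, 7 were higher and 5 rose alike (median 0.13), among them Snrpd2 (0.50) and Snrpd3 (0.45). Of 15 complement genes 7 were higher (4 without vehicle replicate 2 or 4), and Serping1, the inhibitor of C1, and C1s1 rose alike (0.35 and 0.32). The complement genes that rose alike numbered 1 when any of vehicle replicates 1, 4 and 5 or combination replicates 1 and 5 was left out. Of 22 immediate-early genes, which report recent cell activation, 4 were lower (2 without vehicle replicate 1 or 5), and Nr4a1 fell alike (-0.43). Nr4a1 no longer counted as alike without vehicle replicate 5. Of 30 analgesic and pronociceptive receptor genes 5 were higher and 5 lower, with the glutamate receptor Grm4 (-0.53), Htr1b and Ptger1 lower alike. The rises there numbered between 1 and 3 when any of 9 single libraries was left out, and the falls 3 without vehicle replicate 4. Of 14 voltage-gated sodium channel genes 1 was higher and 2 lower, none of them alike. The sodium channel rise ended without vehicle replicate 1 or 5, and 1 fell alike without combination replicate 5. The falls numbered 1 when any of vehicle replicates 1 to 4, fusion replicates 3 to 6 or combination replicates 2 and 5 was left out.

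The largest falls alike included the mitochondrial rRNAs, which polyA selection is meant to remove, and Malat1, an RNA that stays in the nucleus. Of 10 nuclear-retained long noncoding RNAs, 3 were lower and 1, Malat1, fell alike, with a median of -0.20. Beside these counts, 13.5% of all tested genes were lower and 6.48% lower alike. The lower members numbered between 2 and 4 when single libraries were left out. Rian, Mirg, Snhg11 and Meg3 had mean differences below 0 with the fusion protein and above 0 with the combination, the other members below 0 with both. The fall of Malat1 is therefore not read as a fall of the list. Lars2, the mitochondrial leucyl-tRNA synthetase, whose annotated gene includes a stretch like mitochondrial rRNA, was at 34223, 16030, 5082, 7202 and 3876 in vehicle, at 498 to 4601 (median 1567.5) in fusion and at 2204, 2144, 1018, 692 and 915 in combination libraries (-2.70 ± 0.53, adjusted p = 0.00177). Fusion replicate 1 was the only treated library within the vehicle range. The mitochondrial large rRNA mt-Rnr2 was at 46650, 47968, 20368, 25560 and 17481 in vehicle, at 3648 to 21946 (median 10524) in fusion and at 12055, 16290, 9327, 6399 and 10079 in combination libraries (-1.56 ± 0.41, adjusted p = 0.00991). Fusion replicate 1 again lay within the vehicle range. Vehicle replicates 1 and 2 were the highest libraries of both genes. Without these 2, Lars2 was still lower (-1.84, adjusted p = 0.0259), whereas mt-Rnr2 (-1.09, adjusted p = 0.132) and mt-Rnr1 (-1.05, adjusted p = 0.155) no longer passed, nor did they with a term for the late label numbers (-0.88 each, adjusted p = 0.0526 and 0.0615). Of the 3 genes, 1 still counted as alike when vehicle replicate 1 or 2 or combination replicate 3 or 4 was left out. Malat1, a nuclear long noncoding RNA, was at 13092, 25517, 18335, 23596 and 17165 in vehicle, at 5008 to 9949 (median 7749.5) in fusion and at 10675, 15881, 7569, 6943 and 6680 in combination libraries (-1.23 ± 0.22, adjusted p = 0.000694), and combination replicate 2 overlapped the vehicle range. mt-Nd6, the complex I subunit encoded on the other strand of the mitochondrial genome, was at 313, 457, 175, 1026 and 299 in vehicle, at 87 to 149 (median 97.5) in fusion and at 92, 219, 133, 99 and 112 in combination libraries (-1.18 ± 0.23, adjusted p = 0.00139), and combination replicate 2 lay within the vehicle range. Lars2, the mitochondrial rRNAs, Malat1 and mt-Nd6 moved with the same groups as the gene lists above, and their bearing on the lists was not tested.

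Genes that rose alike were short and those that fell alike long: the median exonic length was 2859 and 6323 bases, beside 4616 for all tested genes. In the shortest of 5 equal classes of length 16.2% of genes rose alike and 1.20% fell alike, and in the longest 1.61% rose alike and 11.3% fell alike. The median pooled difference ran from 0.11 in the shortest to -0.05 in the longest class. This course was steeper for the fusion protein, from 0.12 to -0.14, than for the combination, from 0.10 to 0.03, and the 2 share the vehicle libraries. The slope of a library's deviations from each gene's mean on log2 exonic length was 0.0488 ± 0.0490 log2 units per SD of length in vehicle (n = 5) and -0.0222 ± 0.0527 in treated libraries (n = 11). It differed by an exact two-sided permutation test (p = 0.0243, adjusted over 2 slopes 0.0485), a call that ended when any of 12 single libraries was left out. The treated mean joins unlike groups: the slope ran from -0.1026 to 0.0039 in fusion and from -0.0425 to 0.0539 in combination libraries. Within the vehicle range of -0.0281 to 0.1030 lay fusion replicate 2 and all combination libraries but replicate 1. The slope on GC content did not differ past the threshold (0.0474 ± 0.0696 and -0.0216 ± 0.0830, exact permutation p = 0.129). Here too the treated mean joins unlike groups, from -0.0501 to 0.1045 in fusion and from -0.1501 to -0.0112 in combination libraries. The genes that moved alike did differ in GC content, with a median of 44.47% for rises and 51.05% for falls, beside 45.73% for all tested genes.

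**Figure D4:**
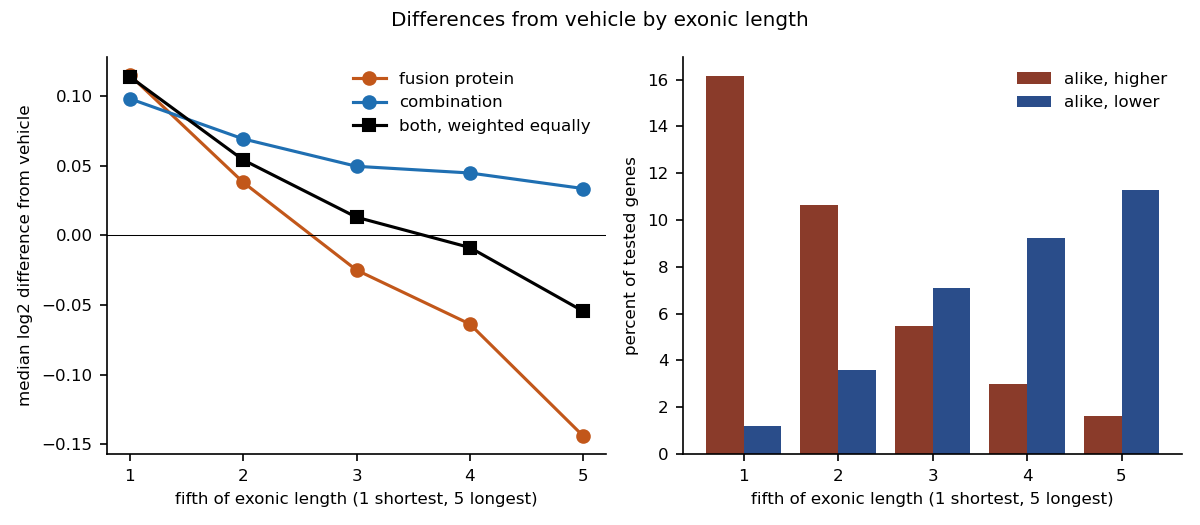
Left, median log2 difference from vehicle (y axis) in 5 classes of tested genes by exonic length (x axis, 1 shortest). Right, percent of the genes of each class that rose or fell alike. Genes that rose alike were 16.2% of the shortest and 1.61% of the longest class.

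When a smooth trend of each library with length and GC content was removed before the fit, 949 genes rose and 774 fell alike, among them 468 of the 986 and 378 of the 867 that did so without the removal. These list medians moved nearer to 0 and kept their direction: the proteasome to 0.21 (23 of 31 higher, 2 lower), the cytosolic ribosome to 0.25 (48 of 77), complex I to 0.12 (15 of 37), complexes II to V to 0.13 (16 of 38), the mitochondrial ribosome to 0.08 (20 of 75, with 2 lower), the neuropeptides to 0.17 (6 of 17), the chromatin regulators to -0.21 (27 of 44 lower), the scaffolds to -0.08 (10 of 44 lower, 1 higher), the calcium channels to -0.07 (6 of 17 lower) and the collagens and matrix to -0.11 (4 of 34 lower, 1 higher). Beside these counts, 2015 of the 13385 tested genes were higher and 1807 lower in the pooled comparison after the removal. The collagen and matrix genes that were lower were below that share and are not read as a result about their list. Of 80 genes that moved alike and were named by rule, 7 no longer passed, Nts (0.11, adjusted p = 0.237), Per2 (-0.23, adjusted p = 0.0545), Gap43 (0.03), Anxa1 (0.31), Eif3h (0.10), Snrpe (0.04) and Tyk2 (-0.12), and Tac1 also did not (0.14, adjusted p = 0.0781). Uqcrb (0.42), Scg2 (0.30), Hspa8 (0.48), Kmt2d (-0.53), Cacna1a (-0.45), Per1 (-0.27) and Nr1d1 (-0.41) still passed. Of the same 80 genes, 15 no longer passed with this removal and a late-label term together, and 2 with the late-label term alone.

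**Figure D5:**
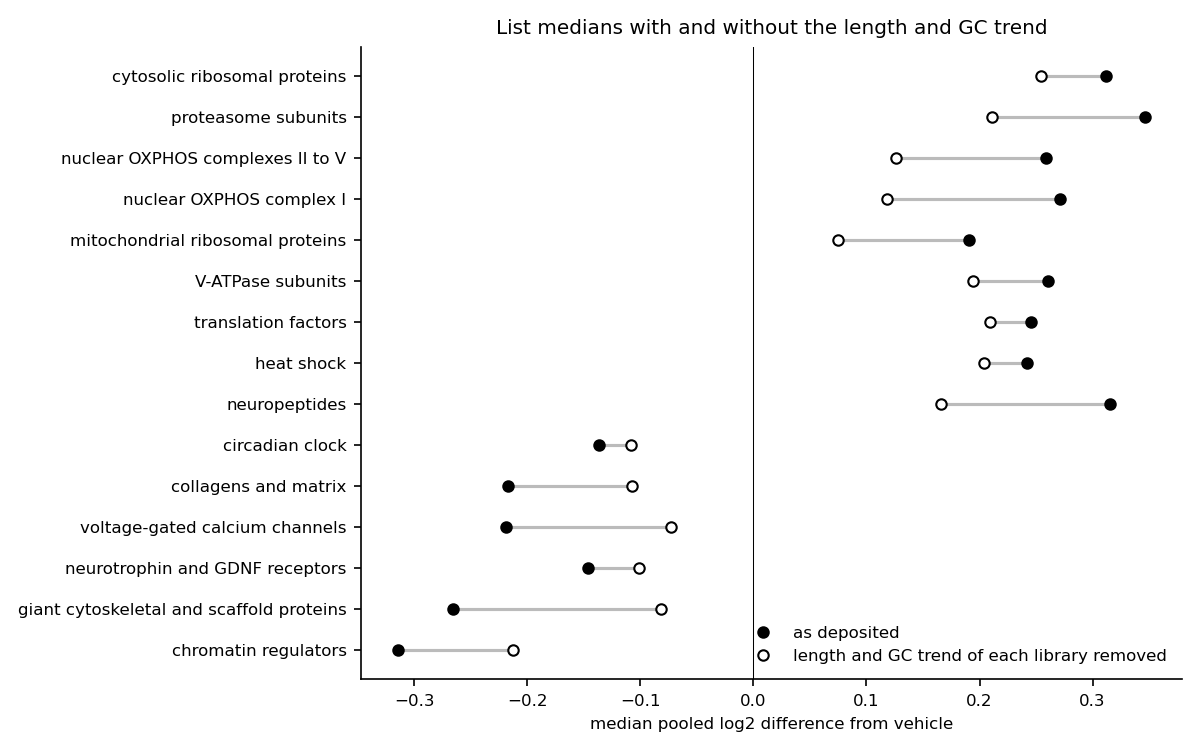
Median pooled log2 difference from vehicle (x axis) of 15 gene lists, on the values as deposited (filled) and after the trend of each library with exonic length and GC content was removed (open). All 15 medians keep their side of 0 and most lie nearer to it, the proteasome at 0.35 and 0.21 and the calcium channels at -0.22 and -0.07.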

How the data were processed

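RNA of 16 libraries was compared, grouped by treatment from the sample labels, which do not say that samples came from separate mice, so p-values measure the spread between these samples. Each deposited library column holds log2 values after variance stabilisation. Per the submitters' processing notes, FastQC, STAR, HTSeq, DESeq2 and build GRCm38 were used, with no versions. The GC content deposited by the authors is in percent, and their p-value columns were not used. Inverting that transform, with the constant taken from the table's minimum, gave whole scaled values for 100% of entries within 0.01.

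Gene tests used limma 3.58.1 in R 4.3.3 (1 fit of all 3 groups, eBayes with trend and robust, Benjamini-Hochberg over 13385 genes), checked on simulated data. Slopes per library were compared by exact permutation over 4368 splits, and the length and GC trends removed were splines with 4 degrees of freedom. Lengths and coordinates came from GENCODE for GRCm38, and promoters from RefSeq. The members and the 37 pathway and 16 marker lists were chosen with earlier results of these data known. Genes are named by rule: the 12 largest rises and falls alike with an established symbol, up to 3 of lowest p per list, a panel of 9 receptor and signalling genes, Lars2, mt-Rnr1, mt-Rnr2 and Malat1, and the 6 largest gaps between treatments. List members given without an SE were named after their values were seen. Replicate numbers did not pair libraries. Python 3.11.15 made the tables and plots. Results of some genes are not reported here; counts over lists and over all genes include them.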

Additional observations from a re-analysis of the deposited data

Results flagged for a closer look

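The 6 pooled calls that differed most between the treatments were found by the fusion minus combination contrast of limma. The gap was 3.24 for Slfn4, 2.64 for Saa3, 2.09 for Isg15, 2.03 for Ccl5, 1.96 for Ifit3 and 1.92 for Il1rn, on the log2 scale. Each was higher in fusion than in vehicle libraries, and the pooled difference of each is a mean of unlike treatments.

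In 35 genes tested in 3 groups each, 2 of 105 groups had 1 library far from the others, where chance gives about 1 in 20. Arg1 was at 629 in fusion replicate 1, beside 211 to 327 in the other fusion libraries. Psma2 was at 2164 in vehicle replicate 4, beside 1830 to 1915 in the other vehicle libraries, and still below every treated library.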

How the results depend on the processing

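The 7 main results were recomputed under 36 other settings where these apply; the causes of the changes were not tested. Pooled counts of 2490 higher and 1805 lower genes became 3959 and 2927 with array weights, 1026 and 1137 with label numbers 1 to 8 only (no combination library, so no alike count), 1419 higher with the length and GC trend and the late label number removed together, and 1542 and 1089 at an adjusted p of 0.01. Alike counts of 986 and 867 became 524 and 396 with that joint removal and 515 and 469 at 0.01. Pooled calls that differed between treatments, 1364, became 802 with quantile normalization, 3261 with array weights, 477 with trend removal, 264 with the joint removal, and 2357 and 219 at 0.1 and 0.01. Without vehicle replicates 1 and 2 together, chosen after seeing the data, pooled calls higher were 1433, alike calls 571 and 535, and calls differing between treatments 779. Leaving out 1 library gave 1976 to 2788 pooled higher, 1467 to 1855 lower, 704 to 1019 alike higher, 697 to 922 alike lower, and 692 to 1963 differing between treatments, which fell to 857 without fusion replicate 4, 692 without combination replicate 2 and 848 without combination replicate 5. The length slope difference ran from -0.0903 to -0.0575 and passed in 4 of these 16. Among single genes, Gap43 reversed under joint removal (-0.10). The replicate block gave 2679 and 1805 pooled and 926 and 831 alike; same-numbered libraries correlated from -0.196 to 0.598, with 7 of 15 pairs above 0.1. Of the 1853 genes that moved alike, 36 changed sign with trend removal and 70 with the joint removal.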
